A study of Homo sapiens with 4 samples.

Results

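Genes that mark or drive the epithelial-mesenchymal transition (EMT) were followed in SKOV3 cells, an established human ovarian cancer cell line, on 2 culture substrates. They were chosen by name and comprise 3 epithelial genes (CDH1, EPCAM and ESRP1), 2 mesenchymal genes (CDH2 and VIM) and 5 transcription factors (SNAI1, SNAI2, ZEB1, ZEB2 and TWIST1), that is, 10 of the 19475 gene symbols measured. RNA-seq was done on 2 libraries of cells on tissue culture plates (TCP), labelled day 0, and on 2 libraries of tumor spheroids cultured on plates coated with polymer X, labelled day 8. In the methods, spheroids were grown with 10% serum replacement and dissociated with accutase every 4 days, while the parental cells were maintained with fetal bovine serum. The labels, however, describe serum replacement under a single protocol shared by TCP and spheroid libraries. Substrate, culture time and perhaps medium therefore changed together and cannot be told apart. The labels name no engineered allele and do not say that replicates came from separate cultures, so each p-value measures the spread between these libraries only. In bulk RNA, fewer cells that express a gene and less RNA per cell cannot be told apart.

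In EMT, epithelial cells lose the contacts made by E-cadherin and gain motility and a vimentin cytoskeleton. SNAI, ZEB and TWIST proteins are transcription factors of this process. SNAI and ZEB proteins bind E-box DNA and repress CDH1, whereas ESRP1 keeps the epithelial splice forms of genes such as CD44. Ovarian carcinoma cells can hold epithelial and mesenchymal genes at the same time.

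Sequences are shown for some of the places where the data hold several transcripts of 1 gene. RefSeq promoter windows on GRCh38.p14, each of 300 bases around a gene start, covered 4 of the 10 genes (CDH2, VIM, ZEB1 and ZEB2). They were searched for the E-box CAGGTG on both strands, read as CAGGTG or CACCTG, the 1 motif searched. It was present in 7231 of 35116 windows of all genes (20.6%), and 3.49% held at least 2 copies. No copy lay in the windows of VIM and ZEB2 or in either window of CDH2. Both CDH2 windows are shown because 2 transcripts with different starts were measured. Those starts, on hg19, lie further apart than the windows, so the windows are not taken to show the starts of the measured transcripts. Of the 7 windows of ZEB1, 1 held 1 copy and 1 held 3 copies. The latter was picked for its copies and is shown with the E-boxes in capitals, which began at positions -242, -85 and 34 from the gene start. A match is only a run of letters, and binding was not measured.
CDH2, chr18:28177081-28177380, minus strand: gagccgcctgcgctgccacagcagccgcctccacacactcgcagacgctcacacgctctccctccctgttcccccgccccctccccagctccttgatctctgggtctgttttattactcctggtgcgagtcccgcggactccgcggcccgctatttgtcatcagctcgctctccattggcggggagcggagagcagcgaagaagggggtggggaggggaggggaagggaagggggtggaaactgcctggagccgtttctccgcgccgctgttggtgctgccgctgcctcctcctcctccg
CDH2, chr18:28036592-28036891, minus strand: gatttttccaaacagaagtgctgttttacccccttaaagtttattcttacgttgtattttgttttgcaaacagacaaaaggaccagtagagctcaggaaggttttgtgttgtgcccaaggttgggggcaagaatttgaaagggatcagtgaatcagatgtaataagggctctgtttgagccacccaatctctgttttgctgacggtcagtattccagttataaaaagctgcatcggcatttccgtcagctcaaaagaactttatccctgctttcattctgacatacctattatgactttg
ZEB1, chr10:31318966-31319265, plus strand: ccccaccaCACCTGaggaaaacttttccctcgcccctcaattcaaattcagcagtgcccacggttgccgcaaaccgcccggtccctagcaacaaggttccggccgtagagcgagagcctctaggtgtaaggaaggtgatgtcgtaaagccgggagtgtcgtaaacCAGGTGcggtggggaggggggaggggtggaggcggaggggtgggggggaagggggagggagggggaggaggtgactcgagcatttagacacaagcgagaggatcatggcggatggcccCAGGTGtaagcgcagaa

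CD44 codes for the hyaluronan receptor and is a splicing target of ESRP1. The 3 exons below set its transcript NM_001001390 apart from the standard transcript NM_001001391, which lacks all variant exons. They lie inside the coding part of CD44 and are given from GENCODE transcripts on GRCh38, plus strand, with no part in capitals.
CD44, first of the 3 exons, chr11:35208105-35208206: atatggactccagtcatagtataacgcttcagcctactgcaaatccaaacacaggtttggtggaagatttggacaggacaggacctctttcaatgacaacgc
CD44, second of the 3 exons, chr11:35209965-35210054: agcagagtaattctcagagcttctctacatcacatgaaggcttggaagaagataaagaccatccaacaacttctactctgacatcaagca
CD44, last of the 3 exons, chr11:35211246-35211449: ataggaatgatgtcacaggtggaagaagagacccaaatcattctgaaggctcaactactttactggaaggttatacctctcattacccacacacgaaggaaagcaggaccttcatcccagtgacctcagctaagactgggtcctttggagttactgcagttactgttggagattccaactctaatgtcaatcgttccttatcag

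The values were FPKM, that is, tags scaled to transcript length and library size, so levels can be compared between genes. The steps between low values put the libraries at 38408000 and 44915000 tags on TCP and at 40027000 and 40685000 tags on polymer X. With limma, log2(FPKM + 1) was compared for the 11964 genes that reached 1 FPKM in 2 or more libraries. A call needed both an adjusted p below 0.05 and a log2 fold change of 1 or more in either direction. Across all tested genes 20.2% were called, with 10.7% called higher and 9.45% called lower in spheroids. By the adjusted p alone, 81% passed, 37.4% higher and 43.6% lower, so a small adjusted p was common in this comparison. Replicates correlated at 0.998 on TCP and 0.997 on polymer X, and libraries of different substrates at 0.854 to 0.862. With 2 libraries in each group, the smallest two-sided p of an exact permutation test is 0.333. Of the 10 genes, 7 passed the filter on low values, and CDH1, SNAI1 and ESRP1 did not.

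The epithelial genes had few or no tags on TCP, and both of those that were detected had higher values in each spheroid library. CDH1 encodes E-cadherin, the adhesion protein of epithelial junctions (NM_001317184, hg19 chr16:68771193-68869445, plus strand). Its FPKM was 0.034 and 0.029 on TCP and 0.373 and 0.351 on polymer X, from 6 and 6 tags against 69 and 66. The mean was 11.5 times higher in spheroids, and the groups did not overlap. The spheroid level was still below 1 FPKM, so CDH1 was not among the tested genes. With no filter on low values its log2 fold change was 0.40 (limma, adjusted p = 0.0020).

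EPCAM, a homophilic adhesion protein of epithelia and a surface marker of carcinoma cells (NM_002354, hg19 chr2:47596287-47614167, plus strand), had an FPKM of 0.168 and 0.104 on TCP and of 1.39 and 1.33 on polymer X. These values came from 11 and 8 tags against 95 and 92. The 2 spheroid libraries lay close together and far above both TCP libraries, and the mean was 9.98 times higher. EPCAM reached 1 FPKM in the spheroid libraries only, which decided that it was tested, so its call is a description. On the log2(FPKM + 1) scale it was higher by 1.05 (SE 0.09, 95% interval 0.86 to 1.25), and with no filter on low values its adjusted p was 0.0026 (limma). With quantile normalization its log2 fold change was 0.46 and it was not called.

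ESRP1, the epithelial splicing regulator (hg19 chr8:95653364-95719694), was listed at 0 in all 4 libraries for each of its 5 transcripts. A count of 0 allows up to 3 tags, or 0.0177 to 0.0207 FPKM depending on the library. ESRP1 was thus not detectable at this depth on either substrate.

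**Figure D1:**
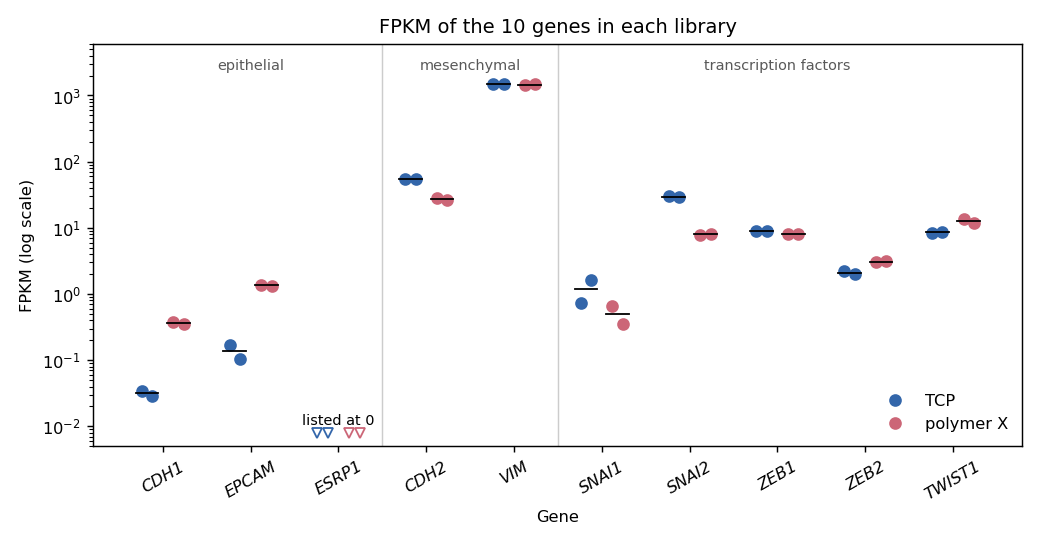
FPKM on a log axis of the 10 genes, with 1 point for each library, blue for TCP and red for polymer X, and a line at each group mean (n = 2). Open triangles mark ESRP1, listed at 0. CDH1 and EPCAM lay higher in both spheroid libraries, CDH2 and SNAI2 lay lower, and VIM overlapped between 1421 and 1497.

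The mesenchymal genes were far more abundant than the epithelial ones on both substrates, and they did not move together. CDH2 encodes N-cadherin, the mesenchymal and neural counterpart of E-cadherin (NM_001308176, hg19 chr18:25530927-25616549, minus strand). Its FPKM was 54.6 in both TCP libraries, against 27.8 and 26.0 in the spheroids. The TCP mean was 2.03 times the spheroid mean, and the groups were clearly apart. CDH2 fell by 0.996 on the log2 scale (SE 0.06, 95% interval -1.13 to -0.87, adjusted p = 2.8e-07), just short of the fold needed for a call. With no filter on low values, the setting given for CDH1 and EPCAM, its adjusted p was 0.0029 (limma). The other listed transcript, NM_001792, which starts further upstream, went from 52.4 and 52.3 to 26.1 and 24.3 FPKM, a log2 difference of -1.03. Transcripts of 1 gene share tags, so the starts of CDH2 could not be measured separately.

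VIM, the intermediate filament of mesenchymal cells (NM_003380, hg19 chr10:17270209-17279596, plus strand), had 1474 and 1496 FPKM on TCP and 1421 and 1497 on polymer X. The 2 groups overlapped, and more than 99% of all gene symbols had lower values than VIM on either substrate. The log2 fold change was -0.03 (SE 0.08, adjusted p = 0.773), with a 95% interval from -0.20 to 0.15. Its sign flipped under quantile normalization, median scaling and without polymer X replicate 1, so no direction is given. VIM stood at 27.0 and 27.4 times CDH2 on TCP and at 51.1 and 57.6 times CDH2 in spheroids.

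The 5 transcription factors split into 1 that fell, 2 that passed the adjusted p with higher values, 1 that did not pass it and 1 too low to test. SNAI2, which encodes SLUG, a zinc finger repressor of CDH1 (NM_003068, hg19 chr8:49830239-49833999, minus strand), had 30.1 and 29.2 FPKM on TCP and 7.75 and 8.21 on polymer X. Both spheroid libraries were far below both TCP libraries. SNAI2 fell by 1.77 on the log2 scale (SE 0.06, 95% interval -1.91 to -1.63, adjusted p = 1.1e-08), a TCP mean 3.71 times that of spheroids, and 2.00% of the tested genes fell more. With no filter on low values SNAI2 had an adjusted p of 0.0019 (limma), near those of CDH1 and EPCAM at that setting. It was called lower under each setting tried apart from a fold minimum of 2.

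SNAI1, which encodes SNAIL, the paralog of SLUG (NM_005985, hg19 chr20:48599513-48605420, plus strand), was low throughout. It had 0.735 and 1.64 FPKM on TCP and 0.661 and 0.347 on polymer X, from 48 and 125 tags against 45 and 24. The TCP replicates differed by more than the lower of them differed from the nearer spheroid library. SNAI1 did not pass the filter, and its log2 difference without it was -0.52 (limma, adjusted p = 0.270).

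ZEB1, a zinc finger and homeodomain repressor (NM_001174095, hg19 chr10:31608101-31818742, plus strand), had 9.05 and 8.87 FPKM on TCP and 8.15 and 8.11 on polymer X. The groups were apart by less than 1 FPKM. Its log2 fold change was -0.13 (SE 0.06, 95% interval -0.27 to 0.02, adjusted p = 0.089), and its 41 transcripts, from 7 starts, ranged from -0.15 to -0.10. The adjusted p became 0.027 without the filter and 0.026 for the sum of the transcripts, so its side of the threshold depends on the setting.

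ZEB2, the paralog of ZEB1 (NM_014795, hg19 chr2:145141942-145277958, minus strand), had 2.24 and 1.98 FPKM on TCP and 3.06 and 3.11 on polymer X. Its groups did not overlap and the mean was 1.46 times higher in spheroids. The log2 fold change was 0.39 (SE 0.08, adjusted p = 0.0013), under the fold minimum, and 0.15 with quantile normalization (adjusted p = 0.105). TWIST1, a basic helix-loop-helix factor (NM_000474, hg19 chr7:19155091-19157295, minus strand), had 8.34 and 8.71 FPKM on TCP and 13.74 and 12.02 on polymer X. Both spheroid libraries lay above both TCP libraries, by 1.51 times at the mean. The log2 fold change of TWIST1 was 0.54 (SE 0.07, adjusted p = 0.00010), also without a call.

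**Figure D2:**
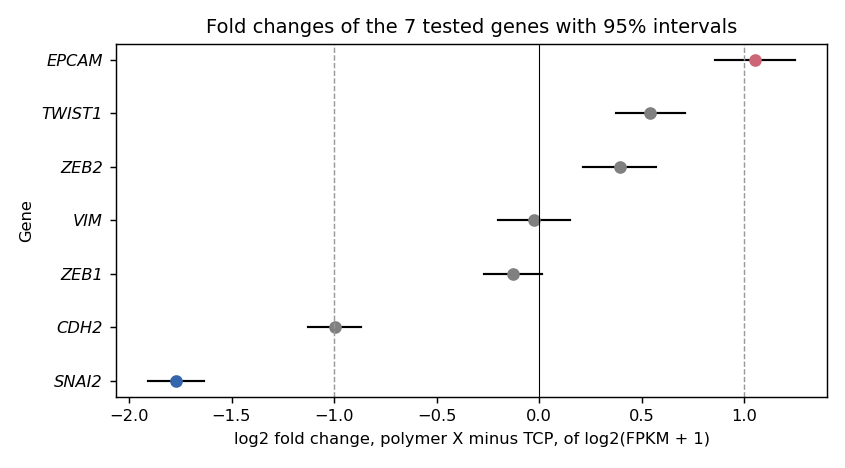
Log2 fold changes of the 7 tested genes, polymer X minus TCP, with 95% intervals from limma. Dashed lines mark the fold minimum of 1 in either direction. EPCAM (red) was called higher at 1.05, SNAI2 (blue) was called lower at -1.77, and CDH2 lay on the lower line at -0.996.

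In all, 1 of the 7 tested genes (EPCAM) was called higher and 1 (SNAI2) lower, beside 10.7% and 9.45% of all tested genes. By the adjusted p alone, 3 were higher (EPCAM, ZEB2 and TWIST1) and 2 were lower (CDH2 and SNAI2), beside 37.4% and 43.6% of all tested genes. These counts lie near the background, and that of higher genes includes EPCAM, which passed the filter only through the group where it is high.

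The order of the transcription factors differed between the substrates. On TCP the order by mean FPKM was VIM, CDH2, SNAI2, ZEB1, TWIST1, ZEB2, SNAI1, EPCAM, CDH1 and ESRP1, with no overlap between neighbours. On polymer X it was VIM, CDH2, TWIST1, ZEB1, SNAI2, ZEB2, EPCAM, SNAI1, CDH1 and ESRP1, where the libraries of ZEB1 and SNAI2 overlapped, as did those of SNAI1 and CDH1. The summed FPKM of the 5 factors was 50.5 and 50.4 on TCP and 33.4 and 31.8 in spheroids. SNAI2 made up 59.7% and 57.9% of that sum on TCP and 23.2% and 25.8% on polymer X. TWIST1 went the other way, from 16.5% and 17.3% to 41.2% and 37.8%. The lower sum thus went with lower SNAI2, while ZEB1 stayed within 1 FPKM.

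**Figure D3:**
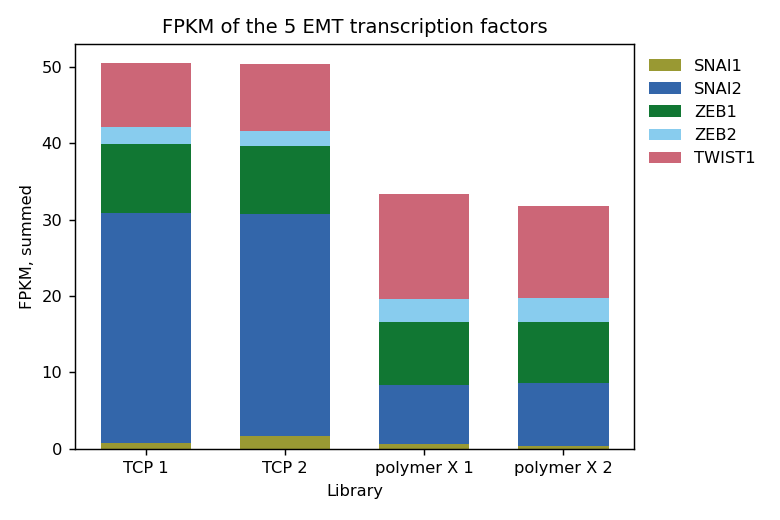
Summed FPKM of the 5 transcription factors in each library, as stacked bars from 0. The bars reached 50.5 and 50.4 on TCP and 33.4 and 31.8 on polymer X. The SNAI2 segment shrank from 30.1 and 29.2 to 7.75 and 8.21.

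Set against each other, the epithelial genes lay closer to the mesenchymal ones in spheroids but still far below them. The mean log2(FPKM + 1) of CDH1, EPCAM and ESRP1 minus that of CDH2 and VIM was -8.07 and -8.11 on TCP and -7.09 and -7.10 on polymer X. This is a description, with no test. The ratio of CDH2 to CDH1 in FPKM was 1607 and 1881 on TCP and 74.6 and 74.0 on polymer X, and the TCP ratios rest on 6 tags of CDH1 in each library. N-cadherin mRNA therefore exceeded E-cadherin mRNA in every library. VIM exceeded EPCAM 8771 and 14382 times on TCP, and 1023 and 1130 times on polymer X.

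CD44 offered a readout of splicing for cells in which ESRP1 was listed at 0. The standard transcript had 71.6 and 75.5 FPKM on TCP and 129 and 128 on polymer X (log2 fold change 0.80, adjusted p = 1.0e-06, not called). Tags on the variant exons were obtained as the tags of a longer transcript minus those of the standard one. The lengths differ by 393 bases for the 3 exons and 1134 for all 9, while the exons sum to 396 and 1143. The tags therefore match the exons closely but not exactly. The 3 exons shown above had 72 and 78 tags on TCP and 34 and 35 in spheroids. Per base, this was 6.66% and 5.86% of the standard transcript on TCP and 1.69% and 1.71% on polymer X. Over all 9 variant exons of NM_000610 there were 138 and 169 tags against 74 and 68, or 4.42% and 4.39% against 1.27% and 1.15%. The variant exons thus had fewer tags in spheroids while the standard transcript had a higher FPKM, and the groups did not overlap on either measure. The shares were not tested.

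**Figure D4:**
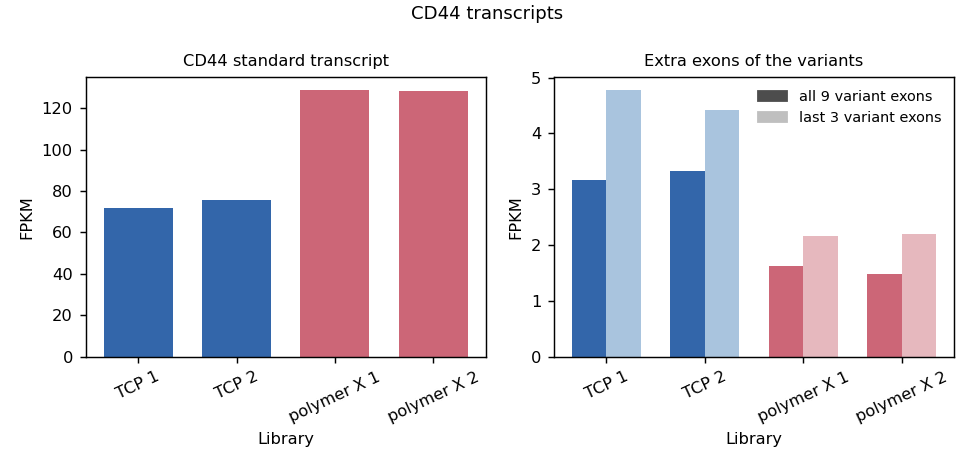
FPKM of the CD44 standard transcript (left) and of the variant exons (right) in each library, blue for TCP and red for polymer X, as bars from 0. Dark bars on the right stand for all 9 variant exons and light bars for the last 3. The standard transcript was higher in spheroids (129 and 128 against 71.6 and 75.5), and the 9 variant exons were lower (1.63 and 1.47 against 3.17 and 3.32).

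The wider epithelial list held 54 genes, none of them among the 10. Of these 36 were tested, 13 were called higher and 1 lower. By the adjusted p alone 21 were higher and 10 lower, beside 37.4% and 43.6% of all tested genes. Of the 13, 5 reached 1 FPKM in the spheroid libraries only, as did 409 of all 1285 genes called higher, so that they could be tested only because they were high there, and the gene called lower reached it on TCP only. The median log2 fold change was 0.69, beside -0.06 over all tested genes, and 0.19 without the filter. Of the tested genes of the list, 38.9% were called in either direction, beside 20.2% of all tested genes. LSR, a protein of tricellular junctions, rose by 2.69 on the log2 scale (adjusted p = 7.1e-09). PPL, a desmosomal plakin and 1 of the 5, had 0.444 and 0.337 FPKM on TCP and 7.85 and 9.32 in spheroids. The 1 gene called lower was AP1M2, a subunit of the epithelial sorting adaptor, with 3.75 and 4.08 FPKM on TCP and 0.129 and 0 in spheroids. The 10 that were lower by the adjusted p also held KRT7, KRT8, KRT18, DSP and TJP1, none of them called. KRT8 went from a mean of 265 FPKM on TCP to 144 in spheroids, and KRT18 from 122 to 89.5. ESRP2, the paralog of ESRP1, was detected at 1.13 and 1.27 FPKM on TCP and 0.936 and 0.945 in spheroids (log2 fold change -0.18, adjusted p = 0.069).

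The mesenchymal list held 62 genes, and it moved both ways. Of the 53 tested, 16 were called higher and 13 lower, with a median of 0.19 beside -0.06 over all tested genes. In all, 54.7% were called, beside 20.2% of all tested genes (10.7% higher and 9.45% lower). Of these, 5 of the 16 reached 1 FPKM in spheroids only and 3 of the 13 on TCP only, among them LUM, THBS1 and CTGF. Over all tested genes, this held for 409 of the 1285 called higher and 62 of the 1131 called lower. COL6A1, a collagen VI chain, rose by 4.42 (adjusted p = 2.1e-10). LUM, a matrix proteoglycan, had 0.074 and 0.232 FPKM on TCP and 24.1 and 19.6 in spheroids. THBS1, a matricellular glycoprotein, had 116 and 124 FPKM on TCP and 0.765 and 0.62 in spheroids, and CTGF, another matricellular protein, had 49.5 and 49.7 against 0.845 and 0.652. VIM, with its overlapping groups, lay between these extremes.

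**Figure D5:**
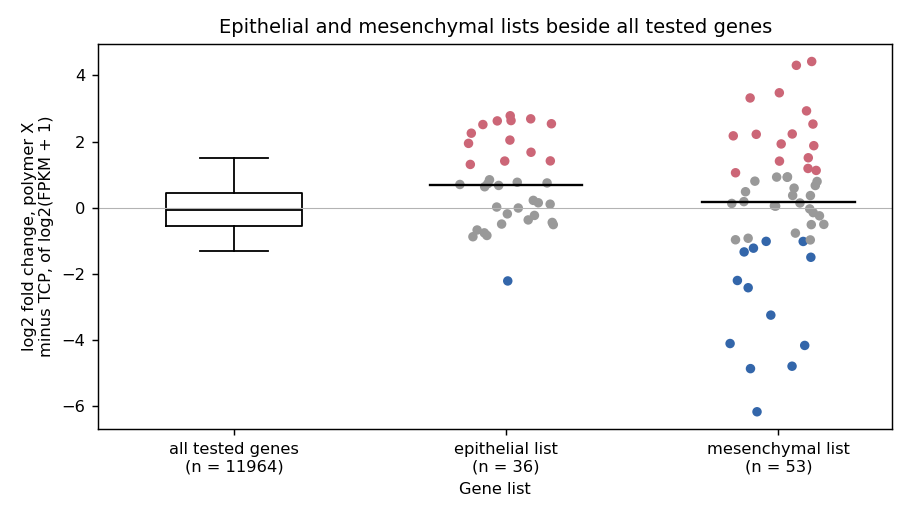
Log2 fold changes, polymer X minus TCP, of the tested genes of the epithelial list (36) and the mesenchymal list (53), beside all 11964 tested genes. Each point is a gene, red if called higher and blue if called lower, lines are medians (0.69 and 0.19), and the box shows quartiles with whiskers at the 5th and 95th percentiles. The mesenchymal points spread from -6.16 to 4.42.

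Among 19 other EMT transcription factors, 13 were tested, 3 were called higher and 0 lower, with a median of -0.03 whose sign depended on the setting. The calls make up 23.1% of those tested, beside 20.2% of all tested genes. Of the 3, 2 reached 1 FPKM in spheroids only. PRRX1, a homeobox factor and 1 of these, had 0.026 and 0 FPKM on TCP and 7.67 and 6.97 in spheroids. SOX4, an HMG-box factor, rose by 2.29 (adjusted p = 1.7e-09). Of the 31 cofactors and stability regulators of SNAI and ZEB proteins, all were tested, 0 were called higher and 4 lower, with a median of -0.32. The 4 are 12.9% of the list, beside 9.45% of all tested genes called lower and 20.2% called in either direction. AJUBA, a LIM adaptor that binds SNAI proteins, fell by 1.96 (adjusted p = 5.2e-09), and SKP2, a ubiquitin ligase subunit, fell by 1.44 (adjusted p = 4.6e-08). By the adjusted p alone, 6 of these cofactors were higher and 18 lower, beside 37.4% and 43.6% of all tested genes.

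Of 20 other cadherins, 5 were tested and 1 was called, CDH6, a kidney cadherin, which fell by 1.49 (adjusted p = 4.3e-07). That is 20% of those tested, beside 20.2% of all tested genes. The 15 cadherins not tested stayed under 1 FPKM in every library. Of 16 catenins, nectins and adaptors, 12 were tested, 1 was called higher and 2 lower, with a median of -0.36. Here 25% of those tested were called, also beside 20.2%. JUP, plakoglobin, rose by 2.54 (adjusted p = 3.0e-09), while CTNNAL1, an alpha-catenin relative, fell by 1.81 (adjusted p = 2.8e-08) and NECTIN3, a junction protein, fell by 1.18 (adjusted p = 4.1e-07). Among 19 partners and proteases of EPCAM, 16 were tested, 2 were called higher and 0 lower, with a median of 0.42. The calls make up 12.5% of those tested, beside 20.2% of all tested genes. CD82, a tetraspanin, rose by 1.03 (adjusted p = 9.9e-07). SPINT1, an inhibitor of membrane serine proteases, reached 1 FPKM in spheroids only, with 0.507 and 0.581 FPKM on TCP and 8.90 and 8.30 in spheroids. JUP and SPINT1 also belong to the epithelial list, so each call counts in 2 lists.

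Of 13 other intermediate filament genes, 7 were tested, 2 were called higher and 2 lower, which is 57.1% beside 20.2% of all tested genes. NES, nestin, rose by 1.15 (adjusted p = 7.4e-07) and PRPH, peripherin, which reached 1 FPKM in spheroids only, had 0.8 and 0.648 FPKM on TCP and 2.26 and 3.35 there. The B-type lamins LMNB2 and LMNB1 fell by 2.09 (adjusted p = 3.5e-09) and fell by 1.97 (adjusted p = 6.2e-09). Of 14 splicing regulators, 12 were tested, 0 were called higher and 2 lower, with a median of -0.48. The calls make up 16.7% of those tested, beside 20.2% of all tested genes. HNRNPM, which takes part in CD44 splicing, fell by 1.44 (adjusted p = 1.7e-07), and PTBP1, the polypyrimidine tract binding protein, fell by 1.10 (adjusted p = 1.1e-07).

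The genes nearest to EPCAM over the 4 libraries, by Euclidean distance between centred log2(FPKM + 1) values, were FAM213A (0.0301), ARL6IP5 (0.0305) and PRDX2 (0.0322). Those nearest to SNAI2 were ERCC6L (0.0190), GNGT2 (0.0274) and CCL20 (0.0485). With 4 libraries in 2 groups, this likeness mostly reflects equal fold changes.

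Markers of the cell line and of other cell types were read beside these results. Of 8 genes listed for SKOV3, ERBB2 rose by 2.13 (adjusted p = 6.7e-09) and PAX8 by 1.06 (adjusted p = 1.7e-07). The keratins were lower in spheroids without a call, with log2 fold changes of -0.76 for KRT7 (adjusted p = 1.6e-05), -0.87 for KRT8 (adjusted p = 6.4e-07) and -0.44 for KRT18 (adjusted p = 4.3e-05). These keratins also belong to the epithelial list. KRT8 and KRT18 still had at least 89.3 FPKM in every library. MSLN had a log2 fold change of 0.55 (adjusted p = 0.0053), also without a call. WT1 and MUC16 stayed under 1 FPKM. The 6 leukocyte markers summed to 0.122 to 0.224 FPKM on TCP and 0.946 to 1.05 on polymer X, with CD3E listed at 0 throughout. Among them PTPRC had 0.005 and 0 FPKM on TCP and 0.468 and 0.53 in spheroids. The 5 endothelial markers summed to 0.478 to 0.509 and 0.628 to 0.855 FPKM, and did not move together. PECAM1 had 0 and 0 FPKM on TCP and 0.573 and 0.458 in spheroids, while KDR had 0.476 and 0.438 against 0.215 and 0.11. The 6 fibroblast markers summed to 8.64 to 8.97 FPKM on TCP and 10.8 to 12.5 on polymer X, and 2 of them were tested. DCN was called higher, with 0.025 and 0 FPKM on TCP and 7.26 and 6.20 in spheroids, and it reached 1 FPKM in spheroids only. COL1A1 was lower, with 8.21 and 8.48 FPKM on TCP and 3.81 and 3.77 in spheroids (log2 fold change -0.96, adjusted p = 9.3e-07, not called). THY1 had 0.139 and 0.184 FPKM on TCP and 0.049 and 0 in spheroids. All 3 also belong to the mesenchymal list. The part of other cell types in the results was not tested.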

How the data were processed

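The authors deposited FPKM values for 50078 RefSeq transcripts on hg19, made with HOMER from tags on exons of both strands and rounded to 3 decimals. The submitters' processing notes name STAR 2.4.0, HOMER and DESeq with no role. The library kit was directional but counting ignored strand, so antisense RNA cannot be told apart. Other libraries named in the file header were not analysed here. Of several transcripts of a symbol (10500 symbols), that with the highest mean value was kept. With R 4.3.3, limma 3.58.1 (eBayes with trend, Benjamini-Hochberg adjustment over all tested genes) was run on log2(FPKM + 1), which understates changes of low genes, and was tested on simulated data. Library depth came from the step between low values, and limits of 3 tags cover counting error only. Named genes were the 10 genes, the 2 called genes with the largest log2 fold change in each direction of each list, the SKOV3 markers, CD44 and the 3 nearest genes to the largest rise and fall. Other genes (ESRP2, DSP, TJP1, DCN, COL1A1, THY1, CD3E, PTPRC, PECAM1 and KDR) were named after their values were seen. The genes and lists were chosen with earlier results of these data known. Alternatives were a pseudocount of 0.1, no filter, a filter at a mean of 5 FPKM, quantile normalization, median scaling, a replicate block, summed transcripts, no trend, other fold minimums and each library left out.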

Additional observations from a re-analysis of the deposited data

How the results depend on the processing

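SNAI2 stayed called lower under every alternative apart from a fold minimum of 2, with log2 fold changes of -1.88 to -1.65, and the adjusted p of CDH2 and TWIST1 stayed under 0.05 wherever they were tested. CDH2 crossed the fold minimum with a pseudocount of 0.1 (-1.02), with summed transcripts (-1.02) and without polymer X replicate 1 (-1.04), so 2 genes were called lower there, and 1 or 2 with a library left out. EPCAM was not called with quantile normalization and was not tested with the filter at a mean of 5 FPKM, giving 0 called higher in both. With summed transcripts CDH1 passed the filter (log2 fold change 1.11) and 2 were called higher, while transcripts share tags in that sum. A pseudocount of 0.1 moved CDH1 from 0.40 to 1.81, SNAI1 from -0.52 to -1.05 and EPCAM from 1.05 to 2.64. The sign for VIM flipped with quantile normalization (0.022) and median scaling (0.017), and ranged from -0.063 to 0.012 with a library left out, where the value above 0 was that without polymer X replicate 1. ZEB1 passed the adjusted p without the filter (-0.13) and with summed transcripts (-0.15), and ZEB2 lost it with quantile normalization (0.15). The epithelial minus mesenchymal difference was higher in spheroids by 1.00, and by 2.01 with a pseudocount of 0.1 or 1.25 with summed transcripts. Counts of all genes were 1285 higher and 1131 lower, 702 higher with the filter at a mean of 5 FPKM, where 42.2% of the calls were higher instead of 53.2%. They were 4477 and 5212 with no fold minimum, and 281 and 150 with a minimum of 2. With the filter at a mean of 5 FPKM, the epithelial list had 8 called higher and 0 lower. Its median was 0.78 (pseudocount 0.1), 0.19 (no filter), 0.66 (mean of 5 FPKM), 0.35 (quantile), 0.73 (median scaling), 0.71 (summed transcripts) and 0.64 to 0.73 with a library left out. The mesenchymal median was 0.10 (mean of 5 FPKM), 0.42 (quantile), 0.23 (median scaling), 0.28 (summed transcripts) and 0.21 to 0.23 with a library left out. The median of the other EMT factors turned positive without the filter (0.0043), with median scaling (0.0028) and without TCP replicate 1 or 2. It ran from -0.040 to 0.026 over the libraries left out, and it was -0.52 with the filter at a mean of 5 FPKM. That of other cadherins turned negative with the same filter (-0.46). That of other intermediate filaments turned positive with quantile normalization (0.018). Replicate numbers were not taken as pairs. The deviations of same-numbered libraries from their own group means correlated at only 0.093 over the 11964 tested genes, with only 2 pairs. A replicate block left 1285 and 1131 genes called, the same 2416 in all. Values under 1 FPKM rest on few tags, 6 for CDH1 in each TCP library. The causes of these shifts were not tested.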
